A study of Mus musculus with 8 samples.

Results

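Messenger RNA of bone marrow mesenchymal stem cells was compared between day 3 and day 7 of osteogenic differentiation in the 2 arms whose extract held no S7. These arms were PCL-O, taken as the blank by elimination from the group names in the series design, and PCL-E, whose extract held E7. S7 and E7 are named as peptides in the series title, and the 2 other arms, PCL-S and PCL-SE, held S7 without and with E7. In every arm, cells labelled as a wild-type BMSC line grew with an extract of a polycaprolactone (PCL) scaffold, made per the labels at 1.25 cm2 per ml over 72 h at 37 °C in complete DMEM with 10% fetal bovine serum. No source used here names the agents of the osteogenic medium. There was 1 library per arm and day, so 2 libraries stood on each side of the comparison, and each pair joins 2 different extracts. The extraction protocol speaks of 3 RNA samples, and no source used here says whether they were pooled. Nothing in the labels shows separate cultures, and the p-values therefore measure only the spread between libraries. That spread was estimated from all 8 libraries, those with S7 included.

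All genes with a rat Ensembl identifier and at least 5 CPM (counts scaled to a library total of 1e6) in both libraries of a day were described. They numbered 10093 of 22050 such genes and of 26873 features in the table. Of these, 9658 passed on both days, 215 on day 3 only and 220 on day 7 only, and all 10093 were tested. Just inside the threshold lay Hddc3 and Nubpl, whose lower library of the better day stood at 5.007 CPM, and just outside lay Calhm5 and Tmod2 at 4.984 CPM. The labels name mouse cells and mm10, whereas 0 features carry a mouse identifier, and gene roles below are the general mammalian ones unless a species is named.

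Mesenchymal stromal cells of the marrow can become osteoblasts, which first lay down a collagen matrix and later mineralise it. Along that course, transcription factors such as Runx2 and Sp7 come before matrix genes such as Ibsp and Bglap. Cultured stromal cells also carry a contractile programme of smooth muscle actin and its partners, and a laminin and collagen IV sheet that integrins and other receptors bind. Wnt, bone morphogenetic protein (BMP), retinoic acid and glucocorticoid signals all act on the choice between these states.

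Throughout, the value of PCL-O stands before that of PCL-E on each day. Of 18 stromal surface genes matched, 11 were members and 3 stayed under 1 CPM in all 4 libraries. Among the members, Thy1 stood at 558 and 706 CPM on day 3 and 420.4 and 502 CPM on day 7, Cd44 at 259 and 275 CPM on day 3 and 225 and 290.0 CPM on day 7, and Eng at 72.8 and 67.4 CPM on day 3 and 57.4 and 68.2 CPM on day 7. Nt5e, another surface enzyme used to define these cells, was below the threshold on both days, between 2.63 and 6.48 CPM, as were Cxcl12 and Lepr, whose highest libraries had 4.62 and 4.32 CPM. Vcam1 and Ngfr did not exceed 0.503 and 0.464 CPM. Of the osteoblast genes, Runx2 had 14.9 and 18.4 CPM on day 3 and 19.6 and 24.1 CPM on day 7, and the alkaline phosphatase Alpl had 9.39 and 12.6 CPM on day 3 and 13.2 and 8.60 CPM on day 7. The late markers were near the counting floor, as Bglap did not exceed 0.152 CPM and Ibsp 0.375 CPM. The same held for the transcription factor gene Sp7, which did not exceed 0.348 CPM. In these libraries 3 counts amount to 0.0719 to 0.0911 CPM. Per length, Acta2, the smooth muscle actin, had 6366 and 6110.0 FPKM on day 3 and 5631 and 4829 FPKM on day 7. The collagen I gene Col1a1 had 3071 and 3286 FPKM on day 3 and 3989 and 2491 FPKM on day 7. The libraries therefore held many but not all stromal surface genes, and almost no RNA of Sp7 or of the late osteoblast markers Bglap and Ibsp.

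The 4 libraries held 34513496, 34700380, 32955649 and 41754124 counts, and floors cover counting error only. Mitochondrial genes took 3.29% and 3.38% of counts on day 3 and 3.09% and 3.85% on day 7, so the PCL-E day 7 library was both the deepest and the one with the highest mitochondrial share. The leukocyte gene Ptprc did not exceed 0.0479 CPM, and 14 of 15 macrophage markers stayed under 1 CPM in all 4 libraries, with Adgre1, C1qa, C1qb, Aif1 and Tyrobp at 0. Their summed level was 6.72 to 7.69 CPM on day 3 and 9.53 to 10.2 CPM on day 7, mostly Cd14. Cd14 had 5.97 and 6.66 CPM on day 3 and 8.405 and 9.05 CPM on day 7. Endothelial markers summed to 102 CPM in both day 3 libraries and to 91.1 and 94.3 CPM on day 7, mostly Eng, with Cdh5, Kdr, Tie1, Cldn5 and Emcn at 0. Flt1 had 19.6 and 23.2 CPM on day 3 and 28.8 and 9.82 CPM on day 7. Tek and Egfl7 reached at most 6.37 and 8.24 CPM. Epithelial markers summed to 3.06 to 4.55 CPM on day 3 and 3.25 to 11.3 CPM on day 7, and Epcam and Esrp1 were at 0. The highest epithelial value was 8.095 CPM, of Krt8 in PCL-E day 7. Erythroid and lymphoid markers summed to 8.30 to 11.2 CPM and then to 4.10 to 8.34 CPM, with 7 of 12 at 0. Nearly all of that sum was Ighm, at 10.8 and 7.925 CPM on day 3 and 3.945 and 8.24 CPM on day 7. Of 12 Schwann and neural markers, which summed to 322 to 340 CPM and then to 344 to 465 CPM, Stmn2 held the most. Map2 came next, at 61.4 and 49.4 CPM on day 3 and 85.5 and 37.7 CPM on day 7.

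By day 7 the cells had more RNA of the matrix genes Lum and Tnc, the receptor gene Il1rl1 and the ligand gene Wnt2, and less of the laminin gene Lama5, the muscle actin gene Acta1 and the retinoid-degrading Cyp26b1. Of these, Wnt2 was a member through day 7 only and Lama5 and Cyp26b1 through day 3 only, so the threshold favours their direction. In all, 86 members rose and 129 fell at an adjusted p under 0.05 in edgeR's quasi-likelihood F-test, adjusted by Benjamini-Hochberg over the 15942 features tested. The fit held all 8 libraries with terms for S7, day, S7 by day and E7, and the day term at no S7 is reported. Over all features tested the same rule called 1.61%, with 0.671% higher and 0.935% lower on day 7. The counts of called members in the gene lists below stand beside these shares. The median log2 fold change was 0.94 for the members that rose and -0.94 for those that fell, the smallest called change was 0.44, and 104 reached 2-fold or more. All 215 called members moved the same way in PCL-O and PCL-E, and their CPM did not overlap between the days. The test itself favours genes on which the arms agree, so this is no separate support for the calls. Non-overlap alone was common: it held for 2987 of 10093 members upwards and 1529 downwards, beside 27.4% and 15.7% of all features. Of the called members, 20 were members through day 3 only and 15 through day 7 only, genes whose direction the threshold itself favours, and 71 rose and 109 fell among those above it on both days.

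These calls depend on which libraries enter the fit. With either day 3 library left out 0 members were called (1120 at an unadjusted p under 0.05 without PCL-O day 3 and 1066 without PCL-E day 3), whereas 1107 were called without PCL-O day 7 and 522 without PCL-E day 7. A fit on the 4 libraries alone called 2 with arm as a block and 0 with day only (1180 and 1157 at an unadjusted p under 0.05). All 215 were among the 695 members that DESeq2 called on the same 8 libraries. Over all 15942 features DESeq2 called 832, beside 256 in edgeR.

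**Figure D1:**
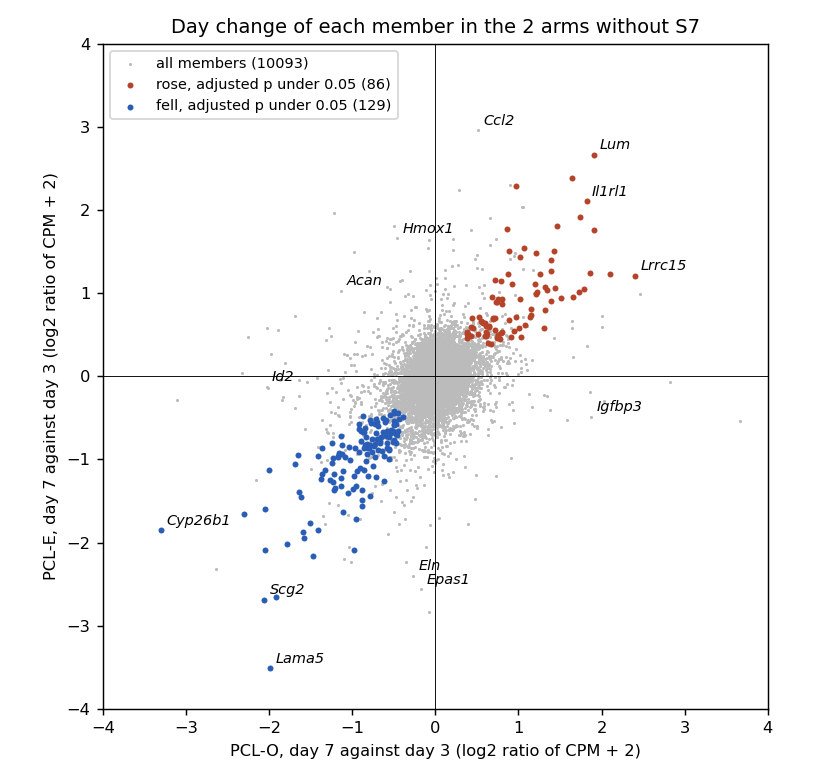
Day 7 against day 3 in PCL-O (horizontal axis) and PCL-E (vertical axis), as log2 ratios of normalised CPM with 2 added, 1 point per member and 1 library per side. The 86 members that rose (red) lie in the upper right and the 129 that fell (blue) in the lower left, while grey members such as Ccl2, Id2, Igfbp3, Eln and Epas1 lie far from 0 in 1 arm.

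The matrix genes among the rises code for a proteoglycan, collagens and adhesive glycoproteins. Lumican (Lum), a leucine-rich proteoglycan that binds collagen fibrils, stood at 10.4 and 9.86 CPM on day 3 and 45.1 and 78.2 CPM on day 7 (log2 fold change 2.51 ± 0.31 (SE), adjusted p = 0.0186). Both day 7 libraries lay above both day 3 libraries, PCL-E further than PCL-O. Col9a1, a fibril-associated collagen best known from cartilage, stood at 9.56 and 6.66 CPM on day 3 and 30.2 and 30.2 CPM on day 7 (1.84 ± 0.20, adjusted p = 0.0167), so the arms met on day 7. Tenascin-C (Tnc), an adhesive glycoprotein of growing and healing tissue, was far more abundant and stood at 1773 and 1318 CPM on day 3 and 4167 and 3048 CPM on day 7 (1.16 ± 0.15, adjusted p = 0.0206). Fibulin-2 (Fbln2), which associates with elastic fibres, stood at 249.9 and 352 CPM on day 3 and 671 and 709.6 CPM on day 7 (1.14 ± 0.14, adjusted p = 0.0186). In each of these genes the lower day 7 library lay above the higher day 3 library. Lrrc15, a leucine-rich membrane protein of matrix-forming fibroblasts, went from 2.26 and 3.00 CPM to 20.3 and 10.1 CPM (2.42 ± 0.35, adjusted p = 0.0293). C1qtnf3 and C1qtnf6, secreted proteins related to C1q, rose as well (2 of 7 members of the complement list, of which 0 fell, although its median was -0.46), the first from 95.5 and 50.5 CPM to 309 and 291 CPM (1.98 ± 0.32, adjusted p = 0.0408) and the second from 35.1 and 38.1 CPM to 61.1 and 56.9 CPM (0.62 ± 0.09, adjusted p = 0.0293).

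Enzymes that process matrix moved in both directions. Loxl2, which crosslinks collagen, rose from 425 and 478 CPM to 735 and 721 CPM (log2 fold change 0.63 ± 0.09 (SE), adjusted p = 0.0315). Adamts2, which trims the amino propeptide of fibrillar procollagens, rose from 21.96 and 21.8 CPM to 44.9 and 35.2 CPM (0.80 ± 0.12, adjusted p = 0.0319). Timp1, an inhibitor of matrix metalloproteinases, rose from 139 and 116 CPM to 248 and 239 CPM (0.87 ± 0.09, adjusted p = 0.0153), and Plat, the tissue plasminogen activator, rose from 22.3 and 23.4 CPM to 68.7 and 50.2 CPM (1.30 ± 0.14, adjusted p = 0.0167). In the other direction, the secreted metalloproteinase Adamts15 had 83.2 and 66.4 CPM on day 3 and 19.1 and 15.2 CPM on day 7 (-2.19 ± 0.10, adjusted p = 0.00289), a fall of similar size in both arms. Its relative Adamts8 went from 696 and 369 CPM to 219 and 189.6 CPM (-1.39 ± 0.20, adjusted p = 0.0279), with PCL-O starting well above PCL-E. Cemip, which takes part in hyaluronan breakdown, fell from 461 and 632 CPM to 135 and 167 CPM (-1.92 ± 0.19, adjusted p = 0.0149). Chst3, a sulfotransferase of chondroitin, fell from 135 and 134 CPM to 48.7 and 30.5 CPM (-1.84 ± 0.22, adjusted p = 0.0180).

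Over the matrix lists, few members passed the test. Of all 10093 members 86 rose and 129 fell, and of all features tested 0.671% rose and 0.935% fell. Of 14 fibrillar and associated collagens 1 rose (Col16a1, from 52.1 and 52.3 CPM to 82.6 and 80.8 CPM, log2 fold change 0.58 ± 0.08 (SE), adjusted p = 0.0276) and 0 fell, with 6 higher and 3 lower at an unadjusted p under 0.05, a level that 7.3% of all features tested passed upwards and 8.47% downwards. The main collagen genes did not pass: Col1a1 had an adjusted p of 0.919, Col1a2 of 0.957 and Col3a1 of 0.304. The median log2 fold change of this list was 0.07, beside 0.00 for all members, but its day ratio was 0.34 in PCL-O and -0.17 in PCL-E, and with PCL-O day 7 left out the fitted median was -0.17. Of 24 collagen folding and crosslinking genes 2 rose and 0 fell, of 15 elastic fibre genes 1 rose and 0 fell, of 7 small leucine-rich proteoglycans 1 rose and 0 fell (median -0.24), of 9 cartilage genes 1 rose and 0 fell, and of 21 matrix proteases and inhibitors 2 rose and 2 fell. The elastic fibre list turned with 1 library: its median was -0.40 without PCL-O day 7 and 0.26 without PCL-E day 7. Of 17 matricellular genes 1 rose and 2 fell, the latter being Nov (CCN3, from 1463 and 1420.4 CPM to 863 and 561 CPM, -1.09 ± 0.19, adjusted p = 0.0481) and Spon2, a spondin (from 26.7 and 36.7 CPM to 15.96 and 15.8 CPM, -1.06 ± 0.16, adjusted p = 0.0319). Fibronectin (Fn1) had 2547 and 2470.0 FPKM on day 3 and 3083 and 2284 FPKM on day 7 (adjusted p = 0.951), and osteonectin (Sparc) had 4493 and 4270.0 FPKM on day 3 and 4275 and 4093 FPKM on day 7 (adjusted p = 0.533). Periostin (Postn) had 2286 and 1619 FPKM on day 3 and 3378 and 2257 FPKM on day 7 (adjusted p = 0.292).

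Among bone matrix and mineralisation genes, 1 of 12 members rose and 1 fell. Enpp1, which makes the mineral inhibitor pyrophosphate, stood at 209 and 147 CPM on day 3 and 806 and 537 CPM on day 7 (log2 fold change 1.85 ± 0.24 (SE), adjusted p = 0.0204). Tnfrsf11b, the decoy receptor osteoprotegerin that restrains osteoclasts, stood at 282 and 266 CPM on day 3 and 147 and 113 CPM on day 7 (-1.14 ± 0.14, adjusted p = 0.0186). Both changes were present in each arm without overlap, as for all called members. Osteopontin (Spp1) had 672 and 638 CPM on day 3 and 1296 and 1022 CPM on day 7 (adjusted p = 0.198), and matrix Gla protein (Mgp) had 184 and 152 CPM on day 3 and 589 and 259 CPM on day 7 (adjusted p = 0.0901), so their CPM also did not overlap, but they did not pass. Of 12 osteoblast transcription factors 0 rose and 0 fell in edgeR, with 3 higher and 2 lower at an unadjusted p under 0.05 (7.3% and 8.47% of all features). DESeq2, which called 832 of 15942 features, had 1 fall. Runx2 had a log2 fold change of 0.32 (adjusted p = 0.302).

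Genes of ligands and receptors were also among the rises. Il1rl1, the receptor for interleukin 33, was among the most abundant rising genes at 465 and 553 CPM on day 3 and 1682 and 2563 CPM on day 7 (log2 fold change 1.98 ± 0.15 (SE), adjusted p = 0.00901), and the lower day 7 library stood well above both day 3 libraries. Wnt2, a secreted ligand, stood at 2.38 and 1.96 CPM on day 3 and 13.8 and 7.74 CPM on day 7 (2.20 ± 0.27, adjusted p = 0.0187). Axin2, a feedback target of Wnt signalling, stood at 6.72 and 6.25 CPM on day 3 and 20.3 and 15.9 CPM on day 7 (1.41 ± 0.16, adjusted p = 0.0171). The receptor gene Fzd4 fell from 65.1 and 65.7 CPM to 30.3 and 34.99 CPM (-1.07 ± 0.12, adjusted p = 0.0171). So of 19 Wnt genes 2 rose and 1 fell, beside 0.671% and 0.935% of all features. The median of these Wnt ligands receptors and modulators was 0.07, and -0.17 without PCL-O day 7. The neuropeptide gene Nmu went from 2.69 and 1.87 CPM to 13.7 and 13.2 CPM (2.50 ± 0.20, adjusted p = 0.0100), and the cytokine gene Lif from 8.84 and 5.59 CPM to 20.3 and 19.7 CPM (1.42 ± 0.19, adjusted p = 0.0223). With Il1rl1 and Lif, 2 of 11 chemokine and cytokine genes rose and 0 fell, beside 0.671% and 0.935% of all features. Of the 11, 2 were members through day 7 only, but not Il1rl1 or Lif. Irs1, which relays insulin and insulin-like growth factor signals, rose from 13.9 and 15.6 CPM to 26.2 and 25.2 CPM (0.74 ± 0.12, adjusted p = 0.0380). It was the 1 called member of 15 in the insulin-like growth factor axis. The median of this axis was -0.16, and -0.61 without PCL-O day 7. Its binding protein gene Igfbp2 had 3447 and 2164 CPM on day 3 and 1242 and 1071 CPM on day 7 (adjusted p = 0.0692).

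Of 27 lysosome and cathepsin genes 3 rose and 0 fell, with a median of 0.11. At an unadjusted p under 0.05, 8 were higher and 0 lower, beside 7.3% and 8.47% of all features. Cathepsin K (Ctsk), a protease that cleaves collagen, stood at 49.8 and 53.4 CPM on day 3 and 90.5 and 107 CPM on day 7 (log2 fold change 0.86 ± 0.07 (SE), adjusted p = 0.0100). Cathepsin B (Ctsb) rose from 389 and 424 CPM to 625 and 689.9 CPM (0.63 ± 0.08, adjusted p = 0.0212), and the glycoprotein gene Gpnmb rose from 59.3 and 61.8 CPM to 95.8 and 102 CPM (0.64 ± 0.07, adjusted p = 0.0169). Ctsk is also an osteoclast marker, and the 10 osteoclast markers summed to 66.1 to 69.3 CPM on day 3 and 111 to 135 CPM on day 7, most of it Ctsk itself. Of the other osteoclast markers Calcr, Dcstamp and Ocstamp were at 0 in all 4 libraries, and Acp5 had 3.16 and 2.39 CPM on day 3 and 4.64 and 5.34 CPM on day 7. Pla2g7, which inactivates platelet-activating factor, rose from 2.38 and 2.77 CPM to 8.50 and 9.75 CPM (1.76 ± 0.13, adjusted p = 0.00901).

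The remaining large rises were of genes with varied roles. Nrep, a small protein found in regenerating tissue, rose from 20.8 and 19.9 CPM to 97.2 and 52.8 CPM (log2 fold change 1.77 ± 0.21 (SE), adjusted p = 0.0171). Capn6, a calpain relative that binds microtubules, rose from 3.39 and 3.26 CPM to 12.2 and 12.5 CPM (1.83 ± 0.21, adjusted p = 0.0171). Plekhg4 rose from 3.10 and 2.39 CPM to 9.80 and 10.9 CPM (1.83 ± 0.32, adjusted p = 0.0481), and Cyp2s1, a cytochrome P450, rose from 4.81 and 3.08 CPM to 21.7 and 9.03 CPM (1.83 ± 0.26, adjusted p = 0.0290). Podoplanin (Pdpn), a stromal surface protein, rose from 88.6 and 88.1 CPM to 158 and 136 CPM (0.67 ± 0.10, adjusted p = 0.0364). Nmu, Lrrc15, Wnt2, Capn6, Plekhg4, Cyp2s1 and Pla2g7 were members through day 7 only, so the threshold favours their direction. LOC100910979 and AABR07007068.1 were also among the 15 largest rises, and their symbols carry no gene name here. LOC100910979 shares its symbol with another entry of the table, and its value is uncertain.

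**Figure D2:**
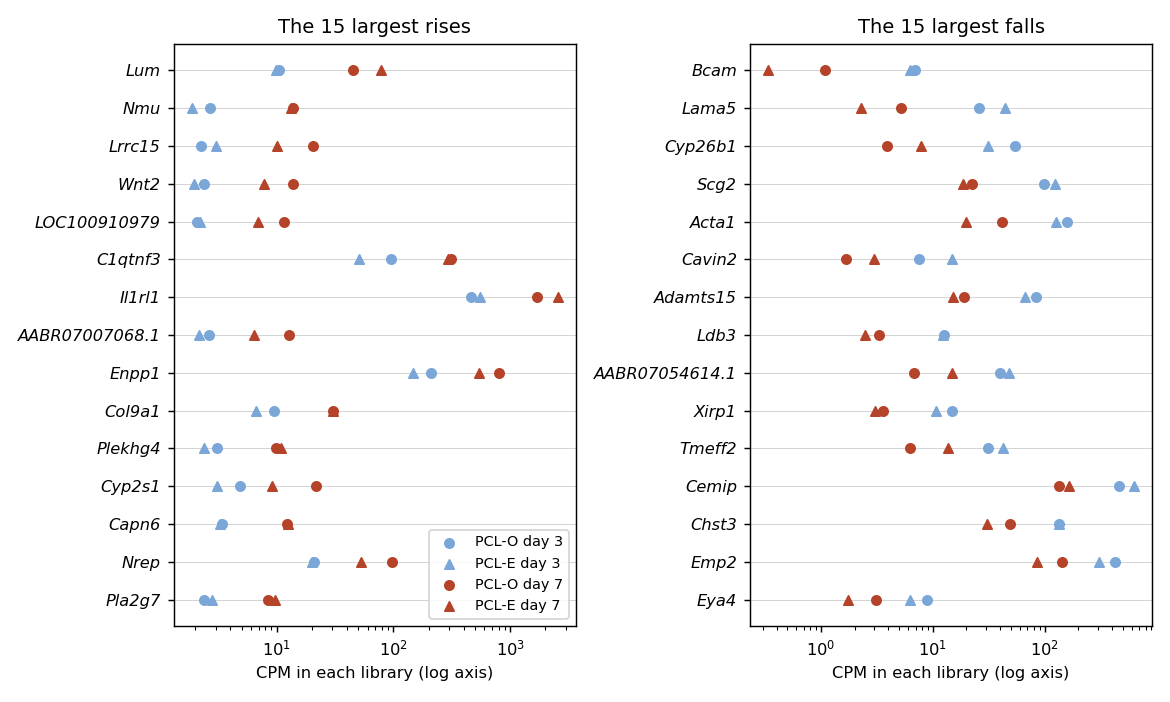
CPM in each of the 4 libraries (log axis) for the 15 members with the largest rise and the 15 with the largest fall; circles are PCL-O, triangles PCL-E, blue day 3 and red day 7. Only genes whose CPM did not overlap between the days were taken. In every row the red points therefore lie on 1 side of the blue ones, as for Bcam at 6.98 and 6.22 CPM on day 3 and 1.09 and 0.335 CPM on day 7.

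A laminin chain gene and a laminin receptor gene had the largest fitted falls. Lama5, the alpha 5 chain of laminins in basement membranes, stood at 25.6 and 44.2 CPM on day 3 and 5.16 and 2.30 CPM on day 7 (log2 fold change -3.32 ± 0.41 (SE), adjusted p = 0.0186). PCL-E went from the higher to the lower of the arms, and no library of day 7 came near those of day 3. Bcam, a surface receptor for laminins that hold this chain, stood at 6.98 and 6.22 CPM on day 3 and 1.09 and 0.335 CPM on day 7 (-3.34 ± 0.52, adjusted p = 0.0484). Both were members through day 3 only, as were Cyp26b1, Cavin2, Ldb3, Xirp1 and Eya4, so the threshold favours their direction. Itga7, an integrin chain that pairs with beta 1 to bind laminin, stood at 72.4 and 65.8 CPM on day 3 and 22.7 and 24.6 CPM on day 7 (-1.61 ± 0.10, adjusted p = 0.00901). The arms lay close together on each day and the days far apart.

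Of 17 basement membrane genes 0 rose and 2 fell, Lama5 and the collagen IV gene Col4a5 (from 564 and 523 CPM to 403 and 354 CPM, log2 fold change -0.59 ± 0.08 (SE), adjusted p = 0.0293). At an unadjusted p under 0.05, 0 were higher and 9 lower, beside 7.3% and 8.47% of all features, and the list median was -0.49 beside 0.00 for all members. Without PCL-E day 7 the basement membrane list had a median of -0.26. The median day ratio was -0.21 in PCL-O and -0.68 in PCL-E. Another laminin chain, Lama4, had 194 and 221 CPM on day 3 and 298 and 229.7 CPM on day 7 (adjusted p = 0.431). Of 23 integrin and focal adhesion genes 0 rose and 1 fell, and their median was -0.15. Without PCL-O day 7 the integrin and focal adhesion list had a median of -0.32. Mcam, an adhesion molecule of stromal cells and pericytes, fell from 271 and 214 CPM to 163 and 108 CPM (-0.91 ± 0.16, adjusted p = 0.0493). It is 1 of 8 pericyte markers, which summed to 1390 to 1425 CPM on day 3 and to 966 to 1636 CPM on day 7, with Rgs5 at 0. In these bulk libraries, fewer cells of a type and less RNA per cell cannot be told apart.

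Genes of striated and of smooth muscle were among the falls. Acta1, the skeletal muscle actin, stood at 158 and 125 CPM on day 3 and 41.3 and 19.7 CPM on day 7 (log2 fold change -2.34 ± 0.28 (SE), adjusted p = 0.0186), with PCL-E below PCL-O on both days. Ldb3, a Z-disc protein, stood at 12.6 and 12.4 CPM on day 3 and 3.31 and 2.49 CPM on day 7 (-2.19 ± 0.19, adjusted p = 0.0100), and Xirp1, an actin-binding protein of striated muscle, at 14.7 and 10.6 CPM on day 3 and 3.55 and 3.04 CPM on day 7 (-2.002 ± 0.25, adjusted p = 0.0199). Eya4, a transcriptional coactivator, went from 8.95 and 6.28 CPM to 3.13 and 1.72 CPM (-1.73 ± 0.27, adjusted p = 0.0364). Of 22 skeletal muscle genes listed, 19 were matched, 13 of them under 1 CPM in all 4 libraries and 4 members. The matched genes summed to 222 to 342 CPM on day 3 and to 43.5 to 135 CPM on day 7. The myogenic factor gene Myod1 did not exceed 0.144 CPM and Myog 0.766 CPM. Acta1 was the 1 called member of 4, and the embryonic myosin gene Myh3 had 37.1 and 20.7 CPM on day 3 and 16.8 and 3.23 CPM on day 7 (adjusted p = 0.183). All 4 were lower at an unadjusted p under 0.05 (8.47% of all features), with a median of -1.78. However, 2 of the 4 were members through day 3 only, so the threshold favours a fall there.

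Of 18 smooth muscle and myofibroblast genes 0 rose and 3 fell, while 12 were lower and 0 higher at an unadjusted p under 0.05 (8.47% and 7.3% of all features), with a median of -0.50. Mylk, the myosin light chain kinase of contraction, stood at 73.04 and 76.8 CPM on day 3 and 37.6 and 23.6 CPM on day 7 (log2 fold change -1.38 ± 0.20 (SE), adjusted p = 0.0290). Myocardin (Myocd), the coactivator of smooth muscle genes, fell from 26.5 and 29.3 CPM to 18.02 and 18.8 CPM (-0.67 ± 0.10, adjusted p = 0.0337), and Lmod1, an actin filament nucleator, fell from 241 and 243 CPM to 180.1 and 165 CPM (-0.55 ± 0.09, adjusted p = 0.0408). The most abundant members did not pass: Acta2 had a log2 fold change of -0.32 (adjusted p = 0.202), Tagln of -0.25 (adjusted p = 0.286) and Myl9 of -0.51 (adjusted p = 0.0535). Myh11, the smooth muscle myosin, had 431 and 436 CPM on day 3 and 325 and 134 CPM on day 7 (adjusted p = 0.180), and PCL-E day 7 was the lowest library. Cavin2, a coat protein of caveolae, fell from 7.45 and 14.98 CPM to 1.67 and 2.99 CPM (-2.31 ± 0.30, adjusted p = 0.0204).

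Retinoid, BMP and glucocorticoid genes were among the other falls. Cyp26b1, which degrades retinoic acid, stood at 53.8 and 31.5 CPM on day 3 and 3.88 and 7.86 CPM on day 7 (log2 fold change -2.99 ± 0.45 (SE), adjusted p = 0.0329), the 1 called member of 8 in the retinoic acid list. PCL-O had the highest level on day 3 and the lowest on day 7. Id4, an inhibitor of helix-loop-helix factors and a BMP target, fell from 33.6 and 35.4 CPM to 13.5 and 18.2 CPM (-1.20 ± 0.10, adjusted p = 0.0110), and the type I receptor gene Bmpr1a fell from 238 and 209 CPM to 137 and 117 CPM (-0.88 ± 0.12, adjusted p = 0.0249). They were the 2 that fell of 25 BMP genes, of which 0 rose, beside 0.935% and 0.671% of all features. Bmp4 had 83.4 and 67.7 CPM on day 3 and 45.2 and 48.9 CPM on day 7 (adjusted p = 0.0644). Of the antagonist genes that did not pass, Grem1 stood at 955 and 764 CPM on day 3 and 1379.7 and 2252 CPM on day 7 (adjusted p = 0.0770) and Fst at 5.30 and 4.50 CPM on day 3 and 9.65 and 18.5 CPM on day 7 (adjusted p = 0.0618).

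Of 11 glucocorticoid-induced genes 0 rose and 2 fell, and 8 were lower and 0 higher at an unadjusted p under 0.05 (8.47% and 7.3% of all features), with a median of -0.68. Tsc22d3, a leucine zipper protein that carries part of the glucocorticoid response, stood at 100.3 and 108 CPM on day 3 and 44.4 and 58.5 CPM on day 7 (log2 fold change -1.09 ± 0.11 (SE), adjusted p = 0.0136), and the transcription factor gene Klf9 at 68.1 and 72.5 CPM on day 3 and 41.2 and 43.4 CPM on day 7 (-0.80 ± 0.08, adjusted p = 0.0149). Neither overlapped between the days. Crispld2 had 89.9 and 175 CPM on day 3 and 57.7 and 65.1 CPM on day 7 (adjusted p = 0.0660), Per1 had 51.7 and 40.7 CPM on day 3 and 30.6 and 21.7 CPM on day 7 (adjusted p = 0.0660), and Fkbp5, a classical marker of the response, had 7.48 and 16.4 CPM on day 3 and 6.68 and 8.48 CPM on day 7 (adjusted p = 0.270). Of 15 clock genes 0 rose and 1 fell, beside 0.671% and 0.935% of all features. The 1 that fell was the repressor gene Nr1d2 (from 29.5 and 29.6 CPM to 21.1 and 20.7 CPM, -0.56 ± 0.10, adjusted p = 0.0490).

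Scg2 and Penk, which code for precursors of secreted peptides, fell too. Scg2, a secretogranin of dense-core granules, stood at 97.8 and 123 CPM on day 3 and 22.5 and 18.7 CPM on day 7 (log2 fold change -2.50 ± 0.27 (SE), adjusted p = 0.0167). Proenkephalin (Penk), a gene chosen here after its values were seen because it was among the most abundant per length, had 4725 and 3501 FPKM on day 3 and 2077 and 1482 FPKM on day 7 (-1.27 ± 0.14, adjusted p = 0.0167). Its FPKM on day 3 was of the order of that of Sparc. Tmeff2, a transmembrane protein with follistatin domains, fell from 30.97 and 42.7 CPM to 6.19 and 13.7 CPM (-1.99 ± 0.22, adjusted p = 0.0167), and Emp2, a tetraspan membrane protein, fell from 428 and 309.6 CPM to 144 and 84.7 CPM (-1.76 ± 0.21, adjusted p = 0.0183). The growth factor receptor gene Met fell from 39.7 and 40.8 CPM to 29.5 and 30.2 CPM (-0.50 ± 0.08, adjusted p = 0.0364), the 1 called member of 27 growth factor genes. AABR07054614.1, an entry without a gene name, was also among the 15 largest falls.

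Other lists had no member called in edgeR. The DESeq2 counts below stand beside 832 of 15942 features that DESeq2 called in all, against 256 in edgeR. Of 20 immediate early genes 0 rose and 0 fell in edgeR, while DESeq2 had 8 fall, and 12 were lower and 1 higher at an unadjusted p under 0.05 (8.47% and 7.3% of all features), with a median of -0.52. Egr1, a transcription factor gene switched on by growth signals, had 266 and 209 CPM on day 3 and 105 and 68.4 CPM on day 7 (adjusted p = 0.0986), and Nr4a1 had 30.1 and 24.6 CPM on day 3 and 11.5 and 7.81 CPM on day 7 (adjusted p = 0.0524). Fos had 24.7 and 16.2 CPM on day 3 and 9.32 and 13.6 CPM on day 7 (adjusted p = 0.359). Of 31 mitosis genes 0 rose and 0 fell in edgeR (2 rose in DESeq2), with a median of 0.22. At an unadjusted p under 0.05, 13 were higher and 0 lower (7.3% and 8.47% of all features), and 24 did not overlap upwards (27.4% of all features). Kif23, a kinesin of cell division, had 48.1 and 53.3 CPM on day 3 and 72.1 and 69.7 CPM on day 7 (adjusted p = 0.0772), whereas Mki67 had 87.04 and 104 CPM on day 3 and 123 and 93.95 CPM on day 7 and Top2a 82.8 and 95.3 CPM on day 3 and 106 and 94.1 CPM on day 7, both overlapping. Of 32 DNA replication genes 2 were higher and 0 lower at an unadjusted p under 0.05, and of 36 cytosolic ribosomal protein genes 1 was higher and 2 lower, with medians of 0.10 and 0.02. Neither list had a member called by edgeR, and DESeq2 called 0 of the first and had 1 rise and 1 fall in the second. Of 8 reference genes edgeR called 0 and DESeq2 1 (lower), with 1 higher and 1 lower at an unadjusted p under 0.05, and Actb had 5383 and 5402 FPKM on day 3 and 4765 and 4442 FPKM on day 7 (adjusted p = 0.185).

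**Figure D3:**
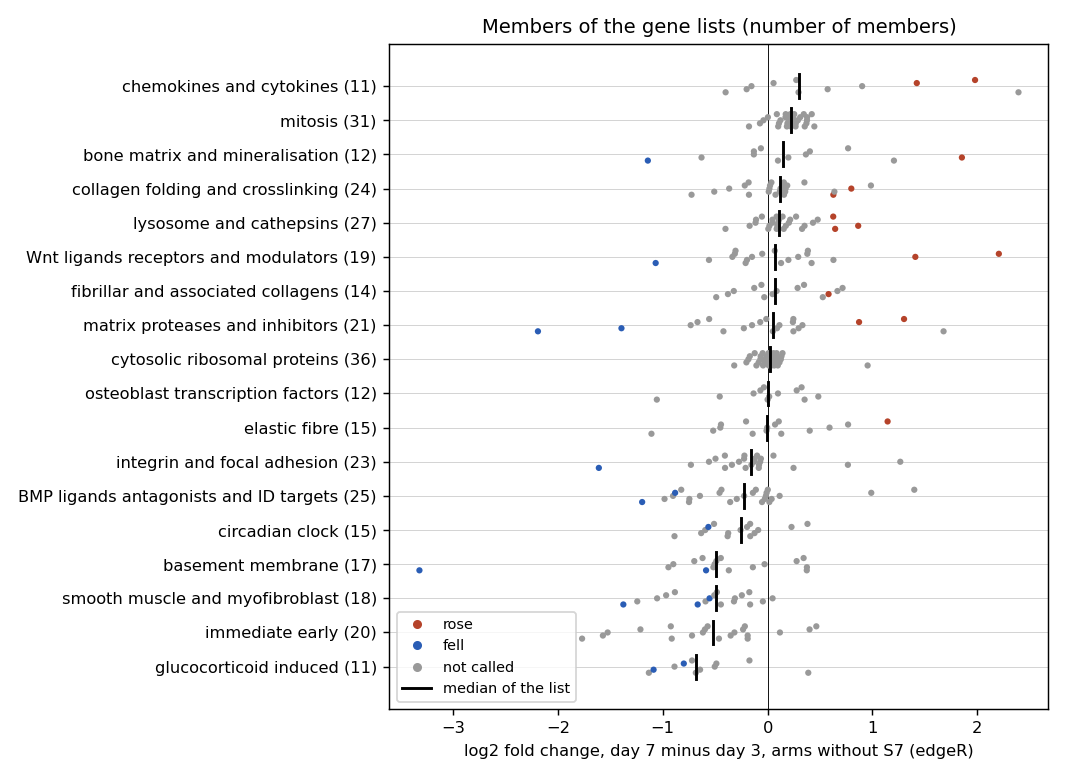
Log2 fold change of each member of 18 of the gene lists, day 7 minus day 3 in the arms without S7, with the median of each list as a black bar, members that rose in red, those that fell in blue and those not called in grey. The medians of these lists run from 0.30 for chemokines and cytokines to -0.68 for glucocorticoid-induced genes, and the immediate early, mitosis, osteoblast factor and ribosomal lists hold grey points only. The skeletal muscle list, with 4 members and a median of -1.78, is not drawn.

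The arms were then set side by side, with 1 library per side and no test. PCL-O had 71 members 2-fold or more higher and 124 lower on day 7, and PCL-E had 81 and 122; over all features tested the shares were 0.621% and 0.985% in PCL-O and 0.79% and 1.02% in PCL-E. Both arms passed 2-fold upwards in 28 members and downwards in 45. Across the 10093 members the day ratios of the arms had r = 0.428, a description across genes that share 4 libraries, and 58.8% had the same sign. The arms lay further apart on day 7 than on day 3: the log2 ratio of PCL-E to PCL-O had an SD over members of 0.179 on day 3 and 0.338 on day 7, and 31 and 161 members were 2-fold or more apart. The SD of the day ratio was 0.327 in PCL-O and 0.350 in PCL-E, so on day 7 the arms differed about as much as the days did.

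The day ratio of PCL-E also ran with gene length, as derived from the deposited counts and FPKM. Over 5 groups of members from the shortest to the longest genes, its median went from 0.08 to -0.16, while that of PCL-O went from -0.03 to 0.02. In the shortest and the longest group 11 and 42 members fell, and 12 and 16 rose. With a length trend removed from each library, 303 members were called, 212 of them among the 215. The parts of length, depth and mitochondrial share in the values of PCL-E day 7 were not tested further.

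Certain genes moved in PCL-O while PCL-E moved under 1.5-fold, by ratios of normalised CPM with 2 added. Igfbp3, a carrier of insulin-like growth factors, had 11.5 and 9.05 CPM on day 3 and 47.97 and 6.35 CPM on day 7, a log2 day ratio of 1.87 in PCL-O and -0.49 in PCL-E. The PCL-O day 7 library stood alone above the other 3. Itgb3, an integrin chain, had 3.65 and 4.55 CPM on day 3 and 15.8 and 6.08 CPM on day 7, and the receptor gene Egfr had 8.29 and 10.5 CPM on day 3 and 30.5 and 17.8 CPM on day 7. The adhesion protease gene Adam12 had 146 and 179 CPM on day 3 and 405 and 265 CPM on day 7. In the other direction, the BMP target gene Id2 had 48.8 and 48.5 CPM on day 3 and 10.8 and 47.6 CPM on day 7, a log2 day ratio of -2.03 in PCL-O and -0.12 in PCL-E. Nog, the secreted antagonist noggin, had 27.6 and 19.5 CPM on day 3 and 5.74 and 25.6 CPM on day 7 (-1.98 in PCL-O and 0.27 in PCL-E), and Atoh8, a helix-loop-helix factor, had 13.3 and 12.7 CPM on day 3 and 2.28 and 21.00 CPM on day 7 (-1.89 in PCL-O and 0.56 in PCL-E). PCL-O day 7 was the lowest library for Id2, Nog and Atoh8. Fgfr3, a receptor of growth plate cartilage, had 148 and 139.7 CPM on day 3 and 40.8 and 122 CPM on day 7. For Egfr and Atoh8 the limit of 1.5-fold in PCL-E was kept only with 2 CPM added. With 0.5 CPM added the log2 day ratio in PCL-E was 0.64 for Egfr and 0.61 for Atoh8, over that limit. Egfr was thus higher on day 7 in both arms.

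Other genes moved in PCL-E and little in PCL-O. The chemokine gene Ccl2 had 4.29 and 3.89 CPM on day 3 and 7.10 and 46.2 CPM on day 7, a log2 day ratio of 0.52 in PCL-O and 2.96 in PCL-E. With 0.5 in place of 2 CPM added, the Ccl2 ratio in PCL-O was 0.64, over 1.5-fold. Haem oxygenase (Hmox1), induced by oxidative stress, had 245 and 201 CPM on day 3 and 182 and 687 CPM on day 7 (-0.46 in PCL-O and 1.66 in PCL-E), and Ptgs1, a cyclooxygenase, had 10.03 and 17.5 CPM on day 3 and 6.68 and 71.01 CPM on day 7. In each the PCL-E day 7 library was the highest of the 4. Downwards, elastin (Eln) had 1189.7 and 1508 CPM on day 3 and 1011 and 305 CPM on day 7 (-0.27 in PCL-O and -2.40 in PCL-E), and Epas1, a hypoxia-inducible factor, had 31.1 and 83.9 CPM on day 3 and 27.9 and 13.5 CPM on day 7 (-0.18 in PCL-O and -2.56 in PCL-E). Igfbp4 had 164 and 202 CPM on day 3 and 131 and 44.4 CPM on day 7, and Elovl6, a fatty acid elongase, had 17.9 and 15.7 CPM on day 3 and 16.8 and 2.51 CPM on day 7. Casq2, a calcium store protein of muscle, had 95.96 and 115 CPM on day 3 and 65.3 and 31.6 CPM on day 7, and Actg2, the enteric smooth muscle actin, had 118 and 149 CPM on day 3 and 114 and 44.8 CPM on day 7. PCL-E day 7 was the lowest library for all 6. For Epas1 the PCL-E day 3 library, at 83.9 CPM, also stood well above PCL-O on either day. In all, 25 members were 2-fold or more higher and 51 lower in PCL-O alone, and 33 and 51 in PCL-E alone, where the other arm moved under 1.5-fold.

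Only 2 members passed 2-fold in opposite directions. The aldo-keto reductase gene Akr1b8 had 19.2 and 27.03 CPM on day 3 and 7.37 and 119 CPM on day 7 (-1.22 in PCL-O and 1.97 in PCL-E). Aggrecan (Acan), the large proteoglycan of cartilage, had 193 and 109.6 CPM on day 3 and 88.5 and 242 CPM on day 7 (-1.14 in PCL-O and 1.03 in PCL-E). For both, PCL-O day 7 was the lowest and PCL-E day 7 the highest library.

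**Figure D4:**
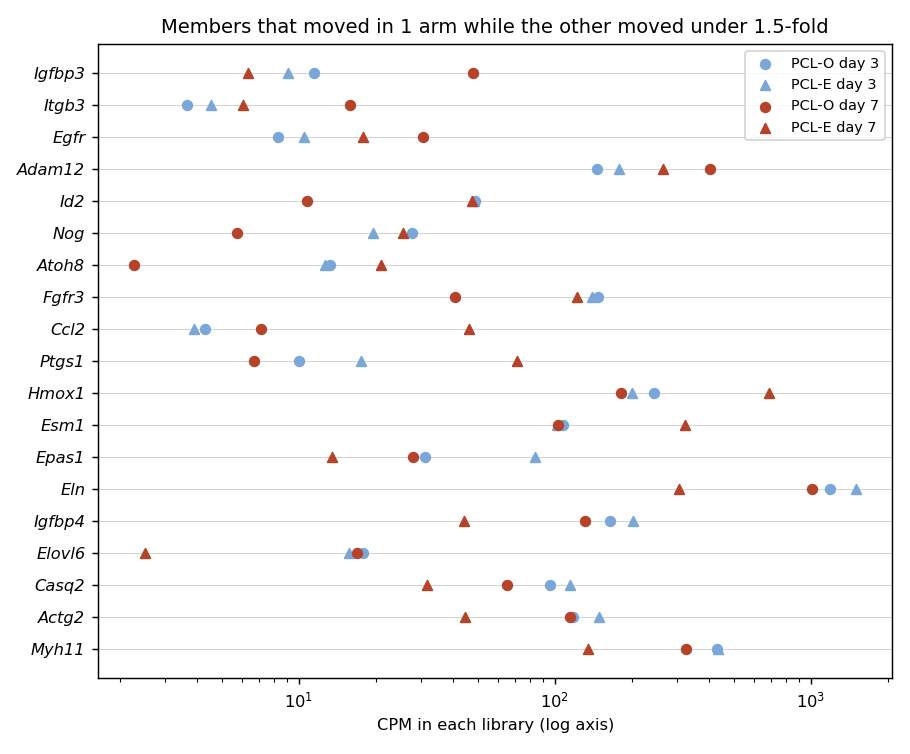
CPM in each library (log axis) for members that moved 2-fold or more in 1 arm while the other moved under 1.5-fold (ratios with 2 CPM added). Circles are PCL-O, triangles PCL-E, blue day 3 and red day 7. In the upper rows the red circle stands apart, as for Igfbp3 at 48.0 CPM, and in the lower rows the red triangle does, as for Ccl2 at 46.2 CPM and Eln at 305 CPM. For Epas1 the blue triangle stands apart as well, at 83.9 CPM.

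Whether these changes differed from those in the arms with S7 was tested by the S7 by day term of the same fit. Of the 215 called members, 121 (56.3%) passed, beside 36.6% of all members and 28.7% of all features tested. Among the members that rose, 41 had a smaller or opposite change with S7, 34 of them with a fitted change of opposite sign, 11 rose further and 34 did not pass. Among those that fell, 55 fell further with S7, 14 fell less or had the opposite sign and 60 did not pass. The median log2 day ratio of the members that rose was 0.88 for PCL-O and 0.77 for PCL-E, beside 0.36 for PCL-S and 0.38 for PCL-SE. That of the members that fell was -0.86 and -0.89 without S7 and -1.13 and -1.31 with it. All 8 libraries entered the fit that made the calls, and the day change without S7 enters both the calls and this term, so these values describe the members and are no independent test. Total-count scaling moves the median of this term over all members from 0.04 to 0.28, and the term's direction is relative to that choice.

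Several genes that rose without S7 had a lower level on day 7 than on day 3 with it. In PCL-S and PCL-SE, Tnc had 868 and 854 CPM on day 3 and 333 and 327 CPM on day 7, so it was lower on day 7 there and higher on day 7 without S7 (difference -2.85 ± 0.21 (SE), adjusted p = 0.00127). Nrep had 16.7 and 14.2 CPM on day 3 and 5.13 and 4.19 CPM on day 7 with S7 (difference -3.81 ± 0.31 (SE), adjusted p = 0.00136). Col9a1 had 5.51 and 6.67 CPM on day 3 and 4.10 and 3.20 CPM on day 7 (difference -2.90 ± 0.29 (SE), adjusted p = 0.00203). For these 3 genes the direction was opposite between the pairs of arms. Fbln2 had 596 and 576 CPM on day 3 and 262 and 297 CPM on day 7 (difference -2.52 ± 0.20 (SE), adjusted p = 0.00133), and Ctsk had 74.4 and 77.2 CPM on day 3 and 40.3 and 42.4 CPM on day 7 (difference -2.05 ± 0.10 (SE), adjusted p = 0.000821). Lum had 12.2 and 17.00 CPM on day 3 and 29.2 and 19.1 CPM on day 7 (difference -2.07 ± 0.42 (SE), adjusted p = 0.0136) and, with S7, had a normalised log2 day ratio of 0.86 in PCL-S and -0.12 in PCL-SE.

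Falls that went further with S7 included those of Acta1, Lama5 and Mylk. Acta1 had 69.8 and 69.8 CPM on day 3 and 2.55 and 0.987 CPM on day 7 with S7 (difference -3.36 ± 0.45 (SE), adjusted p = 0.00385). Lama5 had 122 and 116 CPM on day 3 and 2.28 and 2.08 CPM on day 7 (difference -2.76 ± 0.58 (SE), adjusted p = 0.0151), from a higher start than without S7. Mylk had 76.3 and 70.6 CPM on day 3 and 8.83 and 9.39 CPM on day 7 (difference -1.94 ± 0.28 (SE), adjusted p = 0.00502). Bcam had 96 and 107 counts on day 3 and 0 and 0 on day 7 with S7, and no fitted difference is given because it depends on the prior count. In contrast, Cyp26b1 had 24.01 and 24.1 CPM on day 3 and 19.03 and 39.2 CPM on day 7 with S7 (difference 2.92 ± 0.59 (SE), adjusted p = 0.0135), and Tmeff2 had 79.1 and 80.5 CPM on day 3 and 82.6 and 110.1 CPM on day 7 (difference 1.93 ± 0.29 (SE), adjusted p = 0.00557), with fitted changes of -0.07 and -0.06 there. Pla2g7 rose without S7 and further with it, at 1.83 and 1.61 CPM on day 3 and 78.5 and 91.7 CPM on day 7 (difference 3.55 ± 0.18 (SE), adjusted p = 0.000821). Nmu, Axin2, Ctsb, Klf9 and Penk did not pass this term, which does not show that their changes were alike.

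**Figure D5:**
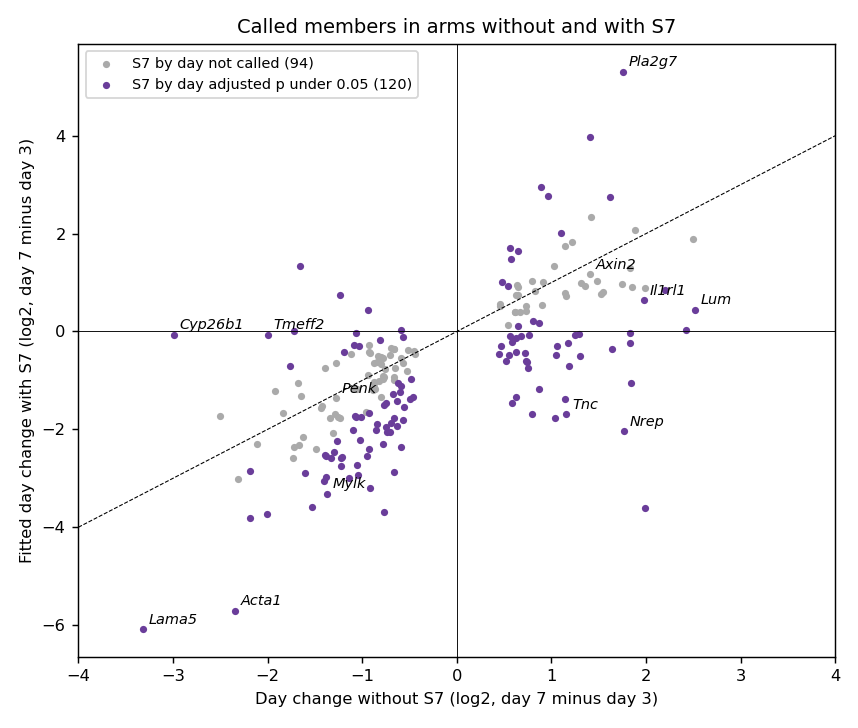
Fitted log2 change from day 3 to day 7 without S7 (horizontal axis) and with S7 (vertical axis) for 214 called members, without Bcam, with 120 whose difference passed the test in purple and 94 others in grey; the dashed line marks equal changes. Tnc, Nrep and many rising members lie below 0 on the vertical axis, Acta1 and Lama5 lie below the line, and Cyp26b1 and Tmeff2 lie near 0 with S7.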

How the data were processed

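Messenger RNA libraries, 1 per arm and day, were made per the labels from TRIzol RNA with a SMARTER mRNA kit. The deposited values include raw read counts, whole in every cell of the table, per the file headers; no source used here names the aligner or the counting tool. The submitters' processing notes name mm10, although the identifiers are rat. FPKM, which the authors deposited per the file headers and which scale counts by gene length and library total, served here for levels per length and to derive lengths. Printed CPM are counts over the library total, without TMM. For the tests, counts were filtered (filterByExpr) and TMM-scaled in edgeR 4.0.16 (R 4.3.3), which left 15942 features, and the quasi-likelihood F-test had 3 residual degrees of freedom and a biological coefficient of variation of 0.137. The SE given is the absolute log2 fold change divided by the square root of the F statistic, so it restates the test. TMM factors of the arms without S7 were 0.935 to 1.02. Those of PCL-S and PCL-SE were 0.928 and 0.936 on day 3 and 1.15 and 1.16 on day 7. Fitted day changes with S7 are therefore lower than the printed CPM alone would give. Since each group pools 2 arms with 1 library each, the residual spread is what these terms leave over, not variation between cultures. It is shared by all 8 libraries, so the libraries with S7 also set it. On the 4 libraries without S7 alone, the biological coefficient of variation was 0.165 with arm as a block and 0.176 with day only. Library totals ranged from 32955649 to 41754124 counts without S7. Single-arm ratios are log2 of TMM-scaled CPM with 2 added and carry no test. No pair of libraries held identical values. The lines of the table that were fragments of annotation text, 10 in all, were left out.

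The genes and lists described were chosen with earlier results of these data known. Named are the 15 largest rises and 15 largest falls among called members whose CPM do not overlap between days, members of the gene lists, reference genes, and up to 10 members per direction that moved 2-fold in 1 arm and under 1.5-fold in the other. Genes with near-identical copies are named as uncertain or left out, and Penk was chosen after its values were seen. Alternatives were DESeq2 1.42.0, other scalings, filters and thresholds, removal of a length trend, leaving out each library, other terms, and the 4 libraries without S7 alone. The tests were run on counts simulated with the same spread in every library and no difference between the arms of a group. There the day term recovered 86% of 2-fold and 100% of 4-fold changes, and called 0.0906% of unchanged features. The real arms lay further apart on day 7 than on day 3, so these shares do not show how reliable the calls are. Figures used Python 3.11.15 and matplotlib 3.10.9. No sequence or coordinate is printed, as no rat reference was used here.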

Additional observations from a re-analysis of the deposited data

Results flagged for a closer look

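The day change differed between the arms with and without S7 in 121 of the 215 called members (S7 by day term, edgeR adjusted p under 0.05). Each value in this paragraph is the log2 day change with S7 minus that without S7. Among members that rose without S7, genes of matrix and secreted or matrix-processing proteins had -2.898 (Col9a1), -2.851 (Tnc), -2.524 (Fbln2), -2.477 (Adamts2), -2.072 (Lum), -2.042 (Col16a1), -1.973 (Loxl2), -1.809 (Plat), -1.052 (C1qtnf6) and -0.698 (Timp1). The other rising genes had -3.807 (Nrep), -2.389 (Lrrc15), -2.063 (Plekhg4), -2.046 (Ctsk), -1.862 (Cyp2s1), -1.353 (Wnt2) and -1.342 (Il1rl1), whereas Gpnmb had 1.004 and Pla2g7 3.546. Among members that fell, muscle, basement membrane and adhesion genes had -3.36 (Acta1), -2.758 (Lama5), -2.29 (Mcam), -1.935 (Mylk), -1.776 (Col4a5), -1.728 (Xirp1), -1.63 (Ldb3), -1.284 (Itga7) and -0.988 (Lmod1). The secreted and signalling genes that fell had -1.854 (Tnfrsf11b), -1.682 (Spon2), -0.9261 (Nov), -0.8811 (Met), -0.6792 (Fzd4) and -0.6609 (Adamts15). The fitted fall was smaller with S7 for genes with 0.459 (Nr1d2), 0.7728 (Id4), 0.8043 (Tsc22d3), 1.065 (Emp2), 1.927 (Tmeff2) and 2.92 (Cyp26b1). LOC100910979 had -5.595 and shares its symbol with another entry, so its value is uncertain.

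In some genes the day ratio had opposite signs in PCL-O and PCL-E, a difference that was not tested because each arm has 1 library per day. The log2 day ratio of PCL-E minus that of PCL-O was 3.185 for Akr1b8, 2.451 for Atoh8, 2.316 for Ptgs1, 2.25 for Nog, 2.167 for Acan, 2.119 for Hmox1, 1.718 for Cd248, 1.631 for Esm1 and 1.327 for Id1. It was -2.357 for Igfbp3 and -2.158 for Igfbp5. For Cd248, a stromal surface protein, the PCL-E day 3 library was the low one, at 8.21 CPM beside 27.7, 26.6 and 31.7 CPM in PCL-O day 3, PCL-O day 7 and PCL-E day 7.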

How the results depend on the processing

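For day 7 against day 3, the members called (215, 86 higher and 129 lower) became 695 (233 and 462) with DESeq2, 1 (0 and 1) with at least 2-fold required and 126 (50 and 76) with an E7 by day term, an alternative chosen after seeing the data. With the 4 libraries alone they were 2 (0 and 2) with arm as replicate block and 0 (0 and 0) with day only. The arm pairs libraries grown with the same kind of extract, which is not shown to be a shared culture. Leaving out 1 library gave 0 to 1107 (0 to 403 higher, 0 to 704 lower): 59 (22 and 37) without PCL-S or without PCL-SE on day 3, 49 (19 and 30) without PCL-S day 7 and 53 (20 and 33) without PCL-SE day 7, beside the values of the PCL-O and PCL-E libraries given with the counts. The cause was not tested. For the S7 by day term, 3697 members (1869 and 1828) became 224 (34 and 190) with at least 2-fold required, 3310 higher and 1196 lower with total-count scaling and 3203 higher and 1319 lower with a length trend removed. Leaving out 1 library gave 1230 to 5063 (506 to 2614 higher, 724 to 2449 lower), with 1230 without PCL-SE day 3, 1462 without PCL-O day 3, 1836 without PCL-E day 3, 1521 without PCL-S day 3 and 1834 without PCL-S day 7. Of 128 genes named with a day change, 17 had a fitted change of either sign over the alternatives, 0 of them among the 63 called, and in 2 the reversed value itself was called: Akr1b8 was -1.599 without PCL-E day 7 and 2.208 without PCL-O day 7, and Atoh8 was 0.5688 without PCL-O day 7 and -2.511 without PCL-E day 7. All other alternatives, median-ratio scaling, no filter, no E7 term, a member threshold of 1 or 20 CPM, and 0.5 CPM added or total-count scaling for single arms, stayed within 1.5 times of the counts. Floors near 0.09 CPM limit statements on Bglap, Sp7 and Ibsp.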
